A study of Rattus norvegicus with 32 samples.

Results

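The fibrillar collagen genes Col1a1 (ENSRNOG00000003897), Col1a2 (ENSRNOG00000011292) and Col3a1 (ENSRNOG00000003357) and the fibronectin gene Fn1 (ENSRNOG00000014288) were followed in rat renal cortex. These 4 genes, of 26404 listed, were chosen by identifier as the core of the fibrous matrix, and each was kept because its chromosome in the files was the one its name requires. Total RNA was depleted of ribosomal RNA and sequenced on strand-specific libraries, and each value is a count of reads per gene in 1 rat. Libraries under 1000000 counts were left out, which removed 2 SHAM rats and left 29 libraries with 14502127 to 27597901 counts.

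The 6 SD rats were Sprague Dawley controls that had no procedure. The other groups were Zucker Diabetic Sprague Dawley (ZDSD) rats, which become obese and diabetic. The 7 SHAM rats had a laparotomy. The 9 RYGB rats had Roux-en-Y gastric bypass, and the 7 RYGB-FMRR rats had the bypass together with fenofibrate, metformin, ramipril and rosuvastatin. All rats were male and were labelled as 37 weeks old. Every ZDSD group had received insulin degludec in the week before surgery. SHAM surgery was done at a younger age than bypass. By the age label the time since surgery was then longer in SHAM, whereas the study describes a single post-intervention period. The operation cannot be told apart from the age at surgery or from any difference in the time since it. SD and ZDSD rats also differ in strain, surgery and insulin, none of which can be told apart from diabetes. RYGB and RYGB-FMRR differ in all 4 drugs at once. They also differ in age at bypass, which was younger in RYGB-FMRR, so the drugs and that age cannot be told apart. The labels name no batch, and the cortex label could not be checked against marker genes because the files give identifiers without names.

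Type I collagen is a rope of 2 chains made by Col1a1 and 1 chain made by Col1a2, and type III collagen is a rope of 3 chains made by Col3a1. Both are laid down between kidney tubules mainly by fibroblasts and pericytes, and their build-up is a hallmark of renal fibrosis. Fibronectin, the product of Fn1, is a matrix glycoprotein that binds cells through integrins and serves as an early scaffold on which collagen fibrils assemble. In bulk cortex, fewer matrix-producing cells and less RNA per cell cannot be told apart.

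The gene models carry the collagen repeat. A collagen chain is a long run of Gly-X-Y triplets, so an exon that codes whole triplets has a length that is a multiple of 9 bases. On the rn5 build, Col1a1 (plus strand) occupies chromosome 10 between 82563434 and 82580363, and 43 of its 51 exon intervals (84.3%) were multiples of 9 bases. Col1a2 (plus strand) occupies chromosome 4 between 31405253 and 31440179, with 44 of 52 (84.6%). Col3a1 (plus strand) occupies chromosome 9 between 51689492 and 51725414, with 44 of 51 (86.3%). Across all genes in the files 14.2% of exon intervals were multiples of 9. The same 5 lengths of 45, 54, 99, 108 and 162 bases made up 41 exon intervals of Col1a1, 43 of Col1a2 and 42 of Col3a1, and exons of 54 bases, which hold 6 triplets, numbered 21, 24 and 24. Fn1 (minus strand) occupies chromosome 9 between 78674439 and 78743407. It is built of other repeats, and 13 of its 47 exon intervals (27.7%) were multiples of 9, with 0 of 54 bases.

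Col1a2 could not be followed. Its count was 0 in 27 libraries and 1 in each of 2 RYGB-FMRR libraries, those of rats 336 and 339, against 19641 counts for Col1a1, 59298 for Col3a1 and 78257 for Fn1 over the same 29 libraries. Among 357 genes with at least 40 exon intervals, 7 (1.96%) had at most 2 counts in all. On the opposite strand, ENSRNOG00000009957 (chromosome 4, 31041996 to 31598338) spans the whole of Col1a2 and had 103266 counts. Reads were counted by strand, and reads that aligned to several places were not counted. The part of either in the missing Col1a2 counts was not tested, and the count is not a level of the transcript. No fold change was computed for Col1a2, and the 2 chains of type I collagen could not be compared.

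The other 3 genes were measured in every library. Levels between genes are given as RPKM, the reads per kilobase of exon and per 1000000 counts after scaling between libraries. By median, Col3a1 was the highest of the 3 in SD, SHAM and RYGB rats, and Fn1 was the highest in RYGB-FMRR rats. Col1a1 was the lowest in every group.

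Col1a1, which makes the major chain of type I collagen, had RPKM values from 5.21 to 8.82 with a median of 6.71 in SD rats. In SHAM rats they ran from 5.64 to 14.5 with a median of 9.29. In RYGB rats they ran from 2.23 to 5.23 with a median of 4.09, and in RYGB-FMRR rats from 1.47 to 4.34 with a median of 2.49. The highest RYGB and RYGB-FMRR rats therefore lay below the lowest SHAM rat, while SD and SHAM overlapped. How many of all tested genes separate these groups as fully was not computed. Most RYGB-FMRR rats lay inside the RYGB range.

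Col3a1, which makes all chains of type III collagen, had RPKM values from 15.9 to 24.8 with a median of 21.0 in SD rats. In SHAM rats they ran from 22.6 to 51.0 with a median of 28.7. In RYGB rats they ran from 11.1 to 20.5 with a median of 18.0, and in RYGB-FMRR rats from 6.87 to 17.4 with a median of 13.8. Again no bypass rat reached the lowest SHAM rat, and the share of all tested genes with such a separation was not computed. The order by median was RYGB-FMRR, RYGB, SD and SHAM for both collagens.

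Fn1 was ordered differently. Its RPKM values ran from 9.85 to 16.6 with a median of 12.9 in SD rats and from 13.4 to 28.8 with a median of 14.8 in SHAM rats. In RYGB rats they ran from 11.7 to 17.4 with a median of 13.3. In RYGB-FMRR rats they ran from 14.1 to 19.0 with a median of 17.3, so every RYGB-FMRR rat lay inside the SHAM range. SHAM rat 311 had the highest value of the 29 rats in each of the 3 genes.

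**Figure D1:**
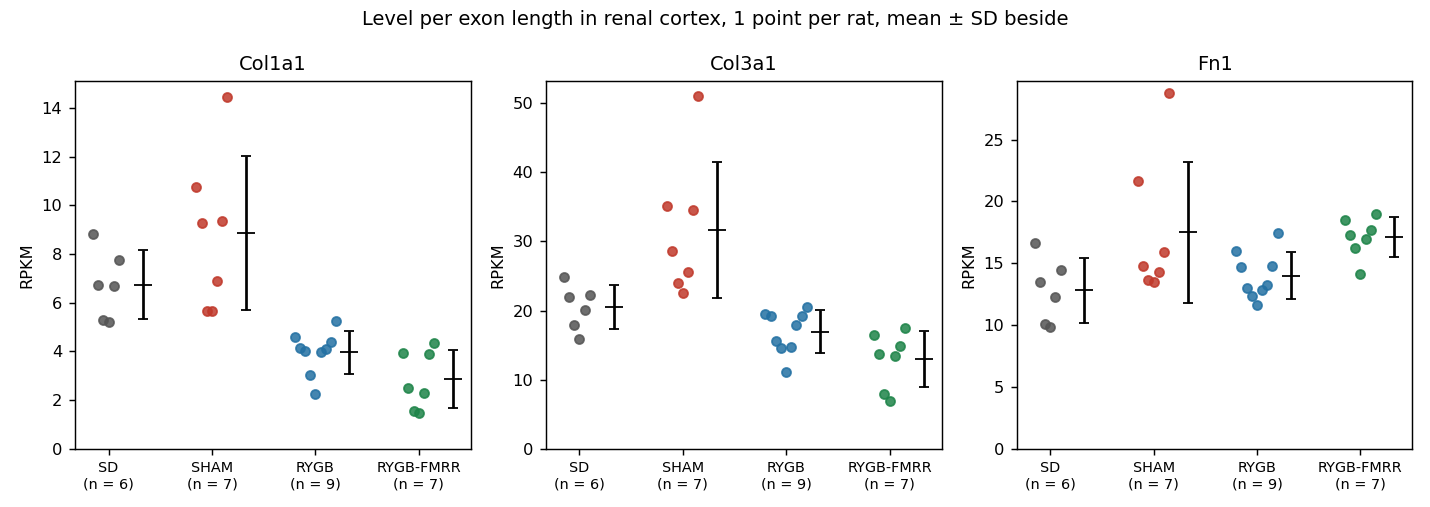
Level of Col1a1, Col3a1 and Fn1 in renal cortex as RPKM (vertical axis) in the 4 groups (horizontal axis, 6 SD, 7 SHAM, 9 RYGB, 7 RYGB-FMRR), with 1 point per rat and the mean ± SD beside each group. Both collagens are lower in every bypass rat than in any SHAM rat, while the RYGB-FMRR rats lie inside the SHAM range of Fn1. The share of all tested genes that separate the groups in this way was not computed.

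The first comparison set the cortex of sham-operated diabetic rats against that of controls without a procedure. Col3a1 was 1.54-fold higher in SHAM compared with SD (log2 fold change 0.63, SE 0.20, adjusted p = 0.0140 in edgeR), and Fn1 was 1.37-fold higher (log2 fold change 0.45, SE 0.15, adjusted p = 0.0194). Col1a1 differed by a log2 fold change of 0.40 (SE 0.24, adjusted p = 0.191), or 0.23 without SHAM rat 311, and did not pass. A gene was called when its adjusted p was under 0.05 and its absolute fold change at least 1.3. By that rule 2 of the 3 genes tested were called, where 18.6% of 14776 genes were. Both calls were lost without SHAM rat 311, where the log2 fold changes were 0.47 for Col3a1 (adjusted p = 0.0509) and 0.28 for Fn1 (adjusted p = 0.0755). The Fn1 call was also lost without SD rat 355 (adjusted p = 0.0577) or SD rat 357 (adjusted p = 0.0565).

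Bypass alone was compared with sham surgery next. Both collagens fell after RYGB, Col1a1 by 1.16 on the log2 scale (SE 0.21, 2.24-fold lower, adjusted p = 0.000710 in edgeR) and Col3a1 by 0.90 (SE 0.18, 1.87-fold lower, adjusted p = 0.00127). All 9 RYGB rats lay below the lowest of 7 SHAM rats in both genes. For no comparison was the share of all tested genes without overlap between the groups computed. Fn1 had a log2 fold change of -0.32 (SE 0.13, adjusted p = 0.109), or -0.15 without SHAM rat 311, and did not pass. The 2 genes called were among 5.35% of all genes called in that comparison. Among the log2 fold changes of all genes tested, that of Col1a1 stood at the 0.799th percentile.

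RYGB-FMRR compared with SHAM gave the largest collagen differences of the 6 comparisons. Col1a1 fell by 1.64 on the log2 scale (SE 0.23, 3.11-fold lower, adjusted p = 8.24e-06 in edgeR) and Col3a1 fell by 1.29 (SE 0.19, 2.44-fold lower, adjusted p = 1.27e-05). All 7 RYGB-FMRR rats lay below the lowest SHAM rat in both genes, but the share of all tested genes without overlap was not computed. Fn1 had a log2 fold change of -0.03 (SE 0.14, adjusted p = 0.899), or 0.14 without SHAM rat 311, and did not pass either way. The background of calls there was 12.1%. These values share the SHAM rats with the previous comparison.

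Adding the 4 drugs to bypass gave no call among the 3 genes, where 4.56% of all genes were called. Col1a1 had a log2 fold change of -0.47 (SE 0.22, adjusted p = 0.176 in edgeR), and Col3a1 one of -0.38 (SE 0.18, adjusted p = 0.167). Fn1 leaned the other way, at 0.29 (SE 0.13, adjusted p = 0.164). In a fit of these 2 groups alone, Fn1 had a log2 fold change of 0.28 (SE 0.08, adjusted p = 0.0245 in edgeR), past the p threshold but below the fold threshold of 1.3. In the fit of all 4 groups, the unadjusted p-values from edgeR were 0.0439 for Col1a1, 0.0399 for Col3a1 and 0.0388 for Fn1. The groups overlapped in all 3 genes, and 2 RYGB-FMRR rats, 323 and 324, lay below every RYGB rat in both collagens.

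Against SD rats, bypass left the 3 genes in different places. In RYGB, Col1a1 was below SD (log2 fold change -0.77, SE 0.22, adjusted p = 0.00754 in edgeR). Col3a1 at -0.28 (SE 0.18, adjusted p = 0.233) and Fn1 at 0.13 (SE 0.14, adjusted p = 0.483) did not pass. That was 1 call among 3, against 19.5% of all genes. In RYGB-FMRR all 3 were called, against 16.7% of all genes. Col1a1 fell by 1.24 on the log2 scale below SD (SE 0.24, adjusted p = 0.000236) with no overlap between the groups. The share of all tested genes without overlap was not computed here either. Col3a1 fell by 0.66 (SE 0.20, adjusted p = 0.0106), with 5 of 7 rats below every SD rat. Fn1 rose by 0.42 (SE 0.15, adjusted p = 0.0325), with 5 of 7 rats above every SD rat, and this call was lost without any 1 of 5 rats (SD 354, 355 or 357, or RYGB-FMRR 312 or 323), where its adjusted p reached at most 0.0859.

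**Figure D2:**
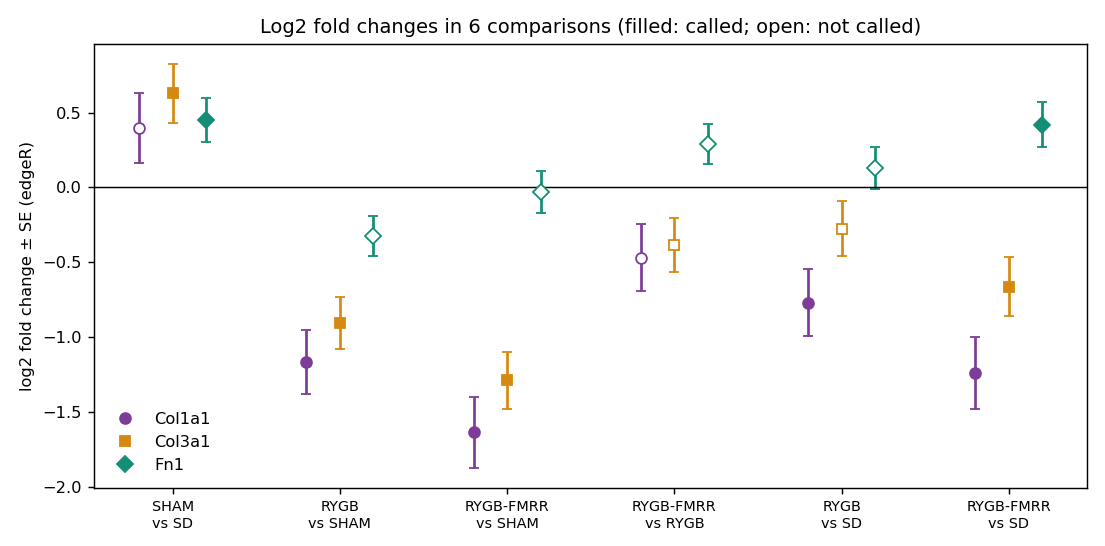
Log2 fold change ± SE from edgeR (vertical axis) of Col1a1, Col3a1 and Fn1 in the 6 comparisons (horizontal axis), with filled symbols for genes called and open symbols for genes not called. Both collagens are below 0 in the 5 comparisons with a bypass group listed first, whereas Fn1 lies between -0.32 and 0.45.

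The different course of Fn1 and the collagens was then tested within each rat, as the log2 ratio of 2 genes per exon length, which does not depend on the scaling of the libraries. The exact permutation test was two-sided, and p-values were adjusted over the 18 ratio tests made. The log2 ratio of Fn1 to Col1a1 ran from 0.71 to 1.10 with a median of 0.92 in SD rats, and from 0.34 to 1.38 with a median of 0.99 in SHAM rats. After RYGB it ran from 1.31 to 2.47 with a median of 1.83, and after RYGB-FMRR from 2.04 to 3.62 with a median of 2.76. As plain ratios, Fn1 exceeded Col1a1 by a median of 3.56-fold in RYGB and 6.79-fold in RYGB-FMRR rats. SHAM and SD differed by less than their spread (difference 0.08, adjusted p = 0.643, exact permutation test).

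RYGB exceeded SHAM in Fn1/Col1a1 by 0.85 on the log2 scale (adjusted p = 0.00308, exact permutation test). RYGB-FMRR exceeded SHAM by 1.70 (adjusted p = 0.00308, exact permutation test), and these groups did not overlap. RYGB-FMRR also exceeded RYGB by 0.85 (adjusted p = 0.00973, exact permutation test), a 1.80-fold difference in the ratio where neither gene alone was called. Of all pairs of a RYGB-FMRR and a RYGB rat, the RYGB-FMRR rat had the higher ratio in 88.9%.

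Fn1/Col3a1 moved in the same order after bypass. Its mean log2 value (± SD) was -0.69 ± 0.21 over 6 SD rats and -0.86 ± 0.37 over 7 SHAM rats, against -0.26 ± 0.34 over 9 RYGB rats and 0.47 ± 0.49 over 7 RYGB-FMRR rats. Per exon length, Fn1 exceeded Col3a1 in none of the SD and SHAM rats, in 1 of 9 RYGB rats and in 6 of 7 RYGB-FMRR rats. RYGB-FMRR exceeded RYGB by 0.73 (adjusted p = 0.00629, exact permutation test) and RYGB exceeded SHAM by 0.60 (adjusted p = 0.00850, exact permutation test). The Fn1 ratios share their Fn1 values, so the 2 sets of tests are not independent.

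The balance between the collagens moved less. Col3a1/Col1a1 had a mean log2 value (± SD) of 1.61 ± 0.20 over 6 SD rats, 1.86 ± 0.23 over 7 SHAM rats, 2.11 ± 0.27 over 9 RYGB rats and 2.23 ± 0.30 over 7 RYGB-FMRR rats. It was higher than SD in RYGB by 0.49 (adjusted p = 0.00308, exact permutation test) and in RYGB-FMRR by 0.61 (adjusted p = 0.00524, exact permutation test). RYGB-FMRR exceeded SHAM by 0.37 (adjusted p = 0.0299, exact permutation test), a call that leaving out any of 7 rats took above the threshold, to at most 0.0597. RYGB and SHAM differed by 0.25 (adjusted p = 0.0797, exact permutation test), as did SHAM and SD (adjusted p = 0.0797, exact permutation test). RYGB-FMRR and RYGB differed by 0.12 (adjusted p = 0.429, exact permutation test).

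**Figure D3:**
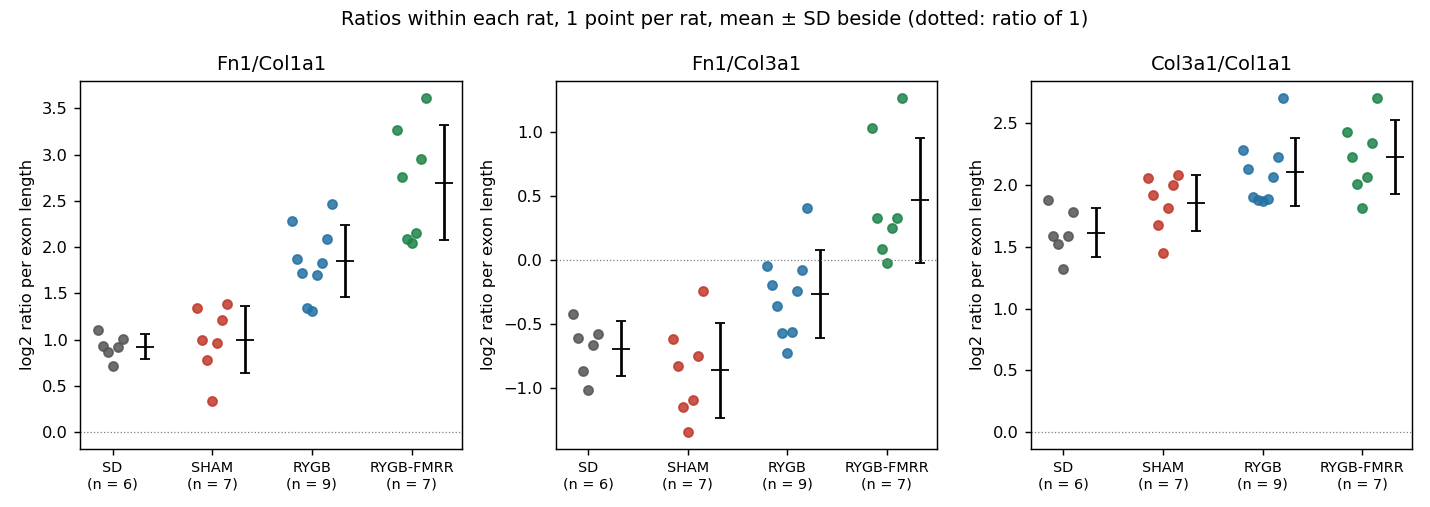
Log2 ratio per exon length (vertical axis) of Fn1 to Col1a1, Fn1 to Col3a1 and Col3a1 to Col1a1 in 4 groups of rats (horizontal axis), with 1 point per rat, the mean ± SD beside, and a dotted line at a ratio of 1. Both Fn1 ratios are highest in RYGB-FMRR, and 6 of its 7 rats lie above 1 for Fn1/Col3a1.

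Rats of 1 group also differed from each other. With each rat taken relative to its group's mean, the SD of log2 CPM (counts per 1000000) over the groups together was 0.47 for Col1a1, 0.38 for Col3a1 and 0.27 for Fn1. Among the 500 genes of nearest level to each, these lay at percentiles 98.8, 97.2 and 91.8. The spread of the collagens was widest in RYGB-FMRR rats, at 0.64 for Col1a1 and 0.53 for Col3a1, and that of Fn1 was narrowest there, at 0.14. Differences in spread between groups were not tested.

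The 2 collagens varied together from rat to rat. Relative to the group means, Col1a1 and Col3a1 had Pearson's r of 0.84 (adjusted permutation p = 3e-05, from the smallest p that 100000 permutations can give) and Spearman's rho of 0.77 (adjusted permutation p = 0.00015) over 29 rats. Without the 2 rats farthest in Col1a1, r was 0.83. Col1a1 and Fn1 had r of 0.47 (adjusted permutation p = 0.0146) and rho of 0.42 (adjusted permutation p = 0.0363), with r of 0.41 without the 2 farthest rats. Those were RYGB-FMRR 324 and RYGB 330, so SHAM rat 311, the highest in all 3 genes, stayed in. With all 31 libraries this r was 0.48, and 0.28 without SHAM 311 and RYGB-FMRR 324. Col3a1 and Fn1 had r of 0.39 (adjusted permutation p = 0.0356) and rho of 0.29 (adjusted permutation p = 0.129), with r of 0.43 without the 2 farthest. With group differences left in, Col1a1 and Fn1 had r of 0.13 and Col3a1 and Fn1 r of 0.20, neither past the threshold. The 3 pairs were the only correlations tested.

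**Figure D4:**
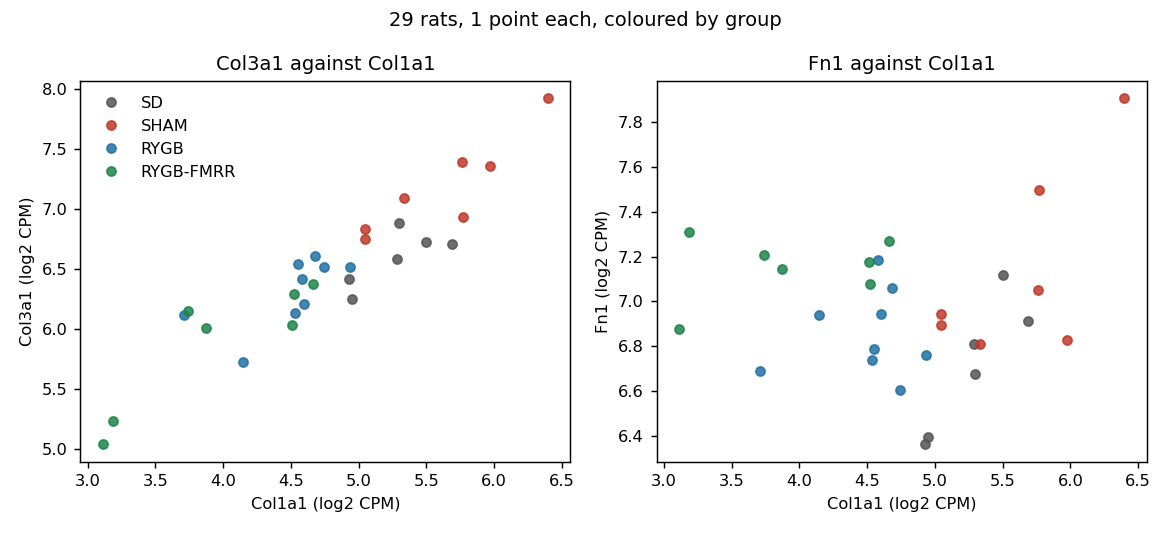
Log2 CPM of Col3a1 (left, vertical axis) and of Fn1 (right, vertical axis) against log2 CPM of Col1a1 (horizontal axis) in 29 rats, with 1 point per rat coloured by group. Col3a1 rises with Col1a1 across the 4 groups, while RYGB-FMRR rats at the lower end of Col1a1 have Fn1 values inside the SHAM range.

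Each of the 14775 other tested genes was ranked by its Pearson's r with a member over the 29 rats, as a description of likeness. The gene most like Col1a1 was Col3a1, and the gene most like Col3a1 was Col1a1 (r of 0.92 for both). Fn1 ranked 5363 for Col1a1 and 4220 for Col3a1. These values hold the differences between the groups. Relative to the group means, Col3a1 still ranked 1 for Col1a1, but Col1a1 ranked 6 for Col3a1, and Fn1 ranked 712 for Col1a1 and 894 for Col3a1. An r of at least 0.8 was reached by 50 genes with Col1a1, by 42 with Col3a1 and by 1 with Fn1, and relative to the group means by 4, 8 and 1. The single gene for Fn1 with group differences left in was ENSRNOG00000031598 on chromosome 3 (125118654 to 125138424, minus strand), at r of 0.81. At rank 3 for Col3a1, with r of 0.90 (rank 1 relative to the group means, r of 0.87), was ENSRNOG00000003736 on chromosome 9 (51758657 to 51823228, minus strand). It lies beyond the 3′ end of Col3a1 on the opposite strand, and 24 of its exon intervals had 54 bases.

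That gene belongs to a set defined by exon structure alone. Genes with at least 20 exon intervals, of which at least 60% were multiples of 9 bases, numbered 22 (0.0833% of all genes), among them the 3 fibrillar collagen members and not Fn1. Collagen genes are known for such exons, but the files do not name the set's other genes. Besides Col1a1 and Col3a1, 14 of the set were tested. In SHAM compared with SD, 4 of the 14 rose and 0 fell, where 18.6% of all genes were called, with a median log2 fold change of 0.27 against 0.02 over all genes. In RYGB compared with SHAM 0 rose and 2 fell, where 5.35% of all genes were called (median -0.24 against -0.00). In RYGB-FMRR compared with SHAM 0 rose and 7 fell, against 12.1% of all genes (median -0.52 against -0.01). In RYGB-FMRR compared with RYGB 0 rose and 3 fell, against 4.56% (median -0.26 against -0.02).

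Compared with SD, 1 of the 14 rose and 0 fell in RYGB, where 19.5% of all genes were called (median 0.12 against 0.01). In RYGB-FMRR 0 rose and 2 fell, where 16.7% of all genes were called (median -0.30 against 0.00). Both counts were no higher than the share over all genes. With DESeq2 in place of edgeR, 3 and 4 of the 14 were called in these 2 comparisons. ENSRNOG00000003736, called in the first 3 comparisons, was higher in SHAM than in SD by 0.58 on the log2 scale (adjusted p = 0.00165 in edgeR). It fell by 0.50 in RYGB compared with SHAM (adjusted p = 0.00728) and by 0.72 in RYGB-FMRR compared with SHAM (adjusted p = 0.000165). In both bypass comparisons with SHAM, the fall of Col1a1 was deeper than that of all 14 other genes.

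**Figure D5:**
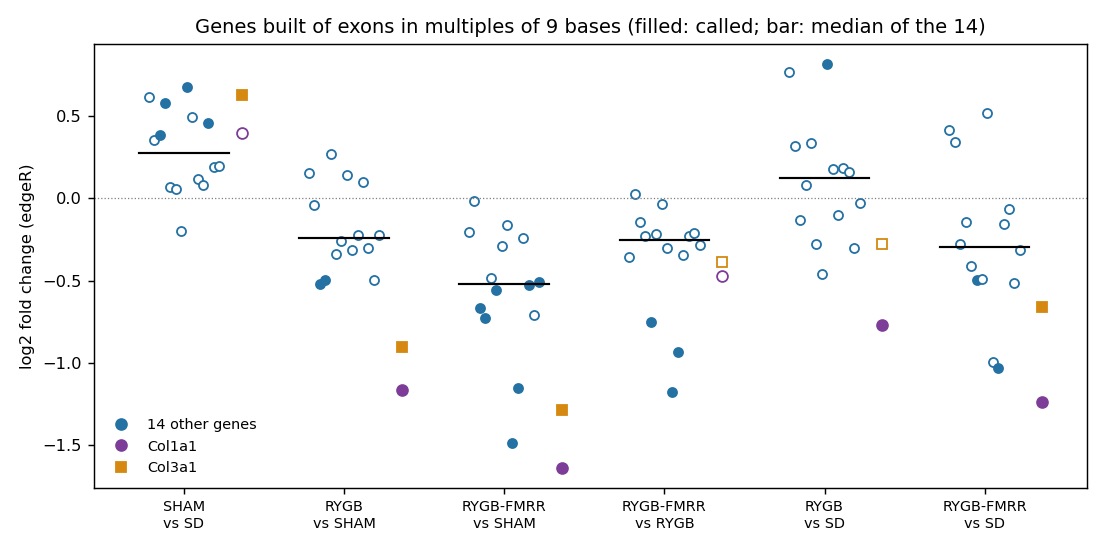
Log2 fold change from edgeR (vertical axis) of the 14 other tested genes built of exons in multiples of 9 bases, with Col1a1 and Col3a1 beside them, in 6 comparisons (horizontal axis). Filled symbols were called, and bars mark the median of the 14, which is -0.52 in RYGB-FMRR compared with SHAM.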

How the data were processed

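Renal cortex RNA of 29 rats was analysed. The authors aligned reads to rn5 with STAR. Read pairs were assigned by reverse strand to Ensembl gene models with featureCounts 1.6.4, and the deposited values are raw counts per gene. A further RYGB-FMRR rat was not analysed here. Counts were normalized by TMM, filtered (filterByExpr, minimum count 10) and tested with the quasi-likelihood test of edgeR 4.0.16 in R 4.3.3, in 1 model of all 4 groups without covariates. P-values were adjusted by Benjamini-Hochberg over 14776 genes. The thresholds are the study's, whose own test, the Wald test of DESeq2, was an alternative (version 1.42.0). SE was taken from each log2 fold change and its F statistic. Log2 CPM used a prior count of 2. Ratios used counts plus 0.5 per kilobase of exon.

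Gene models, lengths and positions are those of the count files. No table paired Ensembl identifiers with symbols (0 in RefSeq's), so the planned lists of matrix genes and cell type markers, and the rule for named genes where it needs symbols, could not be applied. Genes of highest likeness are named by identifier, at most 2 a direction. The exon-structure set and the Fn1/Col3a1 ratio, which took the place of Col1a1/Col1a2, were chosen after seeing the files. The members and lists were chosen with earlier results of these data known. Libraries are separate rats, and no 2 of a group were identical. The fit was tested on simulated data. Alternatives were DESeq2, its size factors in edgeR, no filter, all 31 libraries, only the compared groups, the adjusted p-value alone, an offset of 5 counts in ratios, uncentred correlations, and leaving out each rat in turn. The correlations were not rerun without each rat.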

Additional observations from a re-analysis of the deposited data

Results flagged for a closer look

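In the Col3a1/Col1a1 ratio, RYGB rat 330 stood apart from the other RYGB rats, with a log2 ratio of 2.71 where the next rat had 2.28. Its gap was 0.510 of the range of the 9 rats, against a critical value of 0.493 in Dixon's test. Rat 330 had the lowest Col1a1 of the RYGB rats. Of 24 groups of values tested, 1 was flagged, and chance flags about 1 in 20.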

How the results depend on the processing

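Leaving out each rat in turn changed 9 of 522 calls of member fold changes, and the other alternatives changed 1 of 108, with no reversal of a called value. The 522 include runs in which the rat left out was in neither group compared. All 9 were lost calls, of Fn1 or Col3a1 in SHAM compared with SD or of Fn1 in RYGB-FMRR compared with SD. Both collagens kept their calls in RYGB and RYGB-FMRR compared with SHAM in every alternative run. With only the compared groups, Fn1 in SHAM compared with SD was 0.45 on the log2 scale (adjusted p = 0.0890 in edgeR). Over single rats left out, the log2 fold change in SHAM compared with SD ran from 0.28 to 0.54 for Fn1 and from 0.47 to 0.69 for Col3a1, and that of Fn1 in RYGB-FMRR compared with SD ran from 0.35 to 0.51. The Col3a1/Col1a1 log2 ratio ran from 0.19 to 0.31 in SHAM compared with SD, with a call gained without SD rat 354 or SHAM rat 333, while for RYGB-FMRR against SHAM its bounds were 0.29 and 0.44. With all 31 libraries these 2 were 0.36 (called) and 0.25 (not called). Without centring, r was 0.13 for Col1a1 with Fn1 and 0.20 for Col3a1 with Fn1. With the adjusted p-value alone, calls numbered 5207 for SHAM against SD, 1903 for RYGB against SHAM, 3242 for RYGB-FMRR against SHAM, 1699 for RYGB-FMRR against RYGB, 6002 for RYGB against SD and 4537 for RYGB-FMRR against SD, more because the fold threshold was dropped. The cause of the other changes was not tested. Of the 14 other genes with exons in multiples of 9 bases, 3 were called with DESeq2 and 2 with the adjusted p-value alone in RYGB against SD, and 4 with DESeq2 in RYGB-FMRR against SD, where the counts given first were 1 and 2. The other counts of calls stayed within 1.5 times. The lowest count of Col1a1 in a library was 183, and Col1a2 could not be measured, for which the cause was not tested. No paired analysis was possible because each rat is in 1 group.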

Other observations

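The 2 SHAM libraries left out for depth had 121511 counts (rat 343) and 101534 counts (rat 348). Rat 343 had 4 counts of Col1a1, 19 of Col3a1 and 17 of Fn1, and rat 348 had 3, 14 and 14. Col1a2 had 0 counts in both, where the deeper libraries had at most 1.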
